A study of Homo sapiens with 6 samples.

Results

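Amino acid and neurotransmitter solute carriers were followed through the RNA of SY5Y cells, a human neuroblastoma line, with and without DLX5, a homeobox transcription factor. The set holds the protein-coding genes of the SLC1, SLC3, SLC6, SLC7, SLC36, SLC38 and SLC43 families in the count table, by name. The set leaves out 1 SLC6 gene by the rule, and was chosen with earlier results of these data known. It has 58 genes of the 58735 in the table. RNA was sequenced from 3 libraries of SY5Y cells labelled DLX5 overexpression and from 3 libraries of SY5Y cells labelled control, all grown in DMEM/F12 with fetal bovine serum. The construct, its promoter, the control vector and the number of clones are not given in the sources used here, nor do the labels say that replicates are separate cultures. The p-values therefore reflect the spread among these libraries alone, and that spread may be technical.

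Solute carriers are membrane proteins that move small molecules across the cell surface or the membranes of lysosomes and vesicles. The SLC1 and SLC6 families use the sodium gradient, and some members clear glutamate, GABA, glycine or monoamines from around neurons, while others load cells with amino acids, creatine or taurine. SLC7 light chains pair with an SLC3 heavy chain to exchange amino acids, whereas the cationic SLC7 carriers work alone. SLC38 and SLC36 proteins import glutamine, alanine, proline and similar amino acids or sense them at the lysosome. In the SLC43 family, SLC43A1 and SLC43A2 carry large neutral amino acids without sodium. Glutamine uptake through SLC1A5 and leucine uptake through SLC7A5 are known for their part in the growth of tumour cells, neuroblastoma among them.

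Starts of 4 carriers show the genes on which much of the text turns. They are SLC6A20, which had 129 counts with DLX5 and 1 in control, SLC6A11, the GABA carrier that fell, SLC1A5, the glutamine exchanger that fell, and SLC7A5, the leucine exchanger. Each run is the 250 bases before the RefSeq start in GRCh38.p14, read 5′ to 3′ on the strand of the gene. SLC6A20 covers chr3:45796537-45796786 (minus strand), SLC6A11 chr3:10815978-10816227 (plus strand), SLC1A5 chr19:46788595-46788844 (minus strand) and SLC7A5 chr16:87869508-87869757 (minus strand). Capitals mark a CACGTG, the E-box that MYC proteins are known to bind.
SLC6A20: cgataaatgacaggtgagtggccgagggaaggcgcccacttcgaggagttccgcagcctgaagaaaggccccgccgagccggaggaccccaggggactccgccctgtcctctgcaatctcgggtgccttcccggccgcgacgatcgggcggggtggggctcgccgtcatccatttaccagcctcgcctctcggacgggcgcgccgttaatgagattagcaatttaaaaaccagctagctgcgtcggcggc
SLC6A11: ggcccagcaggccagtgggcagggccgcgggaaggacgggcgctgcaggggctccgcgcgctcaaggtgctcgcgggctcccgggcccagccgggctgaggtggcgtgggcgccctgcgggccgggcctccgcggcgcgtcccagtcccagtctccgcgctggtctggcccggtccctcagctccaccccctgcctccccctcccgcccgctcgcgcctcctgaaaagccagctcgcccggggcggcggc
SLC1A5: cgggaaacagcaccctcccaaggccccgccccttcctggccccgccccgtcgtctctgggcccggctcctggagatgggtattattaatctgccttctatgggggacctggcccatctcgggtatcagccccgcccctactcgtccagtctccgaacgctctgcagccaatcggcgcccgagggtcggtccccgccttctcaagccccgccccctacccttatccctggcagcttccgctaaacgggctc
SLC7A5: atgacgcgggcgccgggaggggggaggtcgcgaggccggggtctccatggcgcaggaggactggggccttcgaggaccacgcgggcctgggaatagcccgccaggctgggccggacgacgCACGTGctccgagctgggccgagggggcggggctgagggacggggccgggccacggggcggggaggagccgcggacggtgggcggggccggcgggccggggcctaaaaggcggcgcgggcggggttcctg

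Both strands of these windows were searched for TAATTA and TAATTG, cores that DLX homeodomains are known to bind, for CACGTG, and for TGATGNAA, the form of the amino acid response element bound by ATF4. SLC7A5 held a CACGTG, and none of the 4 motifs was found in the windows of SLC6A20, SLC6A11 and SLC1A5. Of the 58 carriers 44 had a RefSeq start. CACGTG occurred in 5 of the 44 (11.4%), against 6.49% of 27305 RefSeq windows of the same length. Only 2 of these 5 carriers were tested, SLC7A5, which passed by a small margin, and SLC43A1, which did not pass. The DLX core TAATTA occurred in 2 of 44 (4.55%, against 4.49% of all), TAATTG in 1 (2.27%, against 6.87%) and TGATGNAA in 1 (2.27%, against 3.19%). Among the 44 carriers searched, none with a DLX core or the ATF4 element in its window had enough reads to be tested. Some tested carriers had no window to search, among them SLC1A2, SLC7A3, SLC7A4 and SLC7A11, so their motifs are not known here. A match describes letters only, and these starts need not be the ones the cells used.

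Totals per library ran from 14644077 to 16886026 counts, and the mitochondrial share from 7.1% to 9.13%. DLX5 held 1582, 1569 and 1677 CPM in the DLX5 libraries, against 12.4, 12.3 and 13.8 CPM in control, so every library matched its label (CPM here is the count scaled to a common library total with TMM factors). Of the 10 sympathetic neuroblastoma markers all were tested and all were lower with DLX5, with a summed level of 2265 to 2399 CPM in the DLX5 libraries and 5996 to 6467 CPM in control. TH, the first enzyme of catecholamine synthesis, had only 2 counts over the DLX5 libraries, against 80 in control. Fibroblast markers were higher in 8 of 9 and lower in 0, with sums of 6575 to 6834 CPM in the DLX5 libraries and 1439 to 1491 CPM in control. Most of these sums came from COL3A1 (mean 4383 CPM with DLX5, 1089 CPM in control) and COL1A1 (1947 and 128 CPM). PDGFRA did not pass. Among 5 epithelial markers 3 rose and KRT19 fell, with sums of 338 to 361 CPM in the DLX5 libraries and 18.4 to 21.6 CPM in control. Endothelial and blood markers summed to 2.07 to 2.89 CPM with DLX5 and 0.719 to 1.77 CPM in control, with PECAM1 higher (41 counts with DLX5, 2 in control) and PTPRC at 0 with DLX5 and 4 counts in control. Astroglial markers summed to 3.36 to 5.41 CPM with DLX5 and 3.15 to 4.92 CPM in control, with SLC1A3 at 0 in all libraries. Of the 2 astroglial markers tested SLC1A2 rose and S100B fell (14 counts with DLX5, 96 in control). The part of these marker shifts in the changes of the carriers was not tested, and fewer cells of a type and less RNA per cell cannot be told apart in such bulk RNA.

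In these cells 34 of the 58 carriers had enough reads to be tested. With DLX5, 6 rose, 11 fell and 17 did not pass (edgeR quasi-likelihood test, two-sided, Benjamini-Hochberg adjusted p under 0.05 over all 17269 genes tested). Of all genes tested 58.6% were called, 29.8% higher and 28.8% lower. The carriers stood at 50% called, 17.6% higher and 32.4% lower. Their median log2 fold change was -0.04, against 0.00 over all tested genes (-0.0018), and the median size of the change was 0.26 for carriers and 0.36 for all genes. Changes of at least 2-fold were few, with 2 carriers higher and 2 lower, where 11.3% and 5.18% of all genes were so called. For 20 of the 34 the groups did not overlap, against 62.5% of all genes that had groups without overlap.

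**Figure D1:**
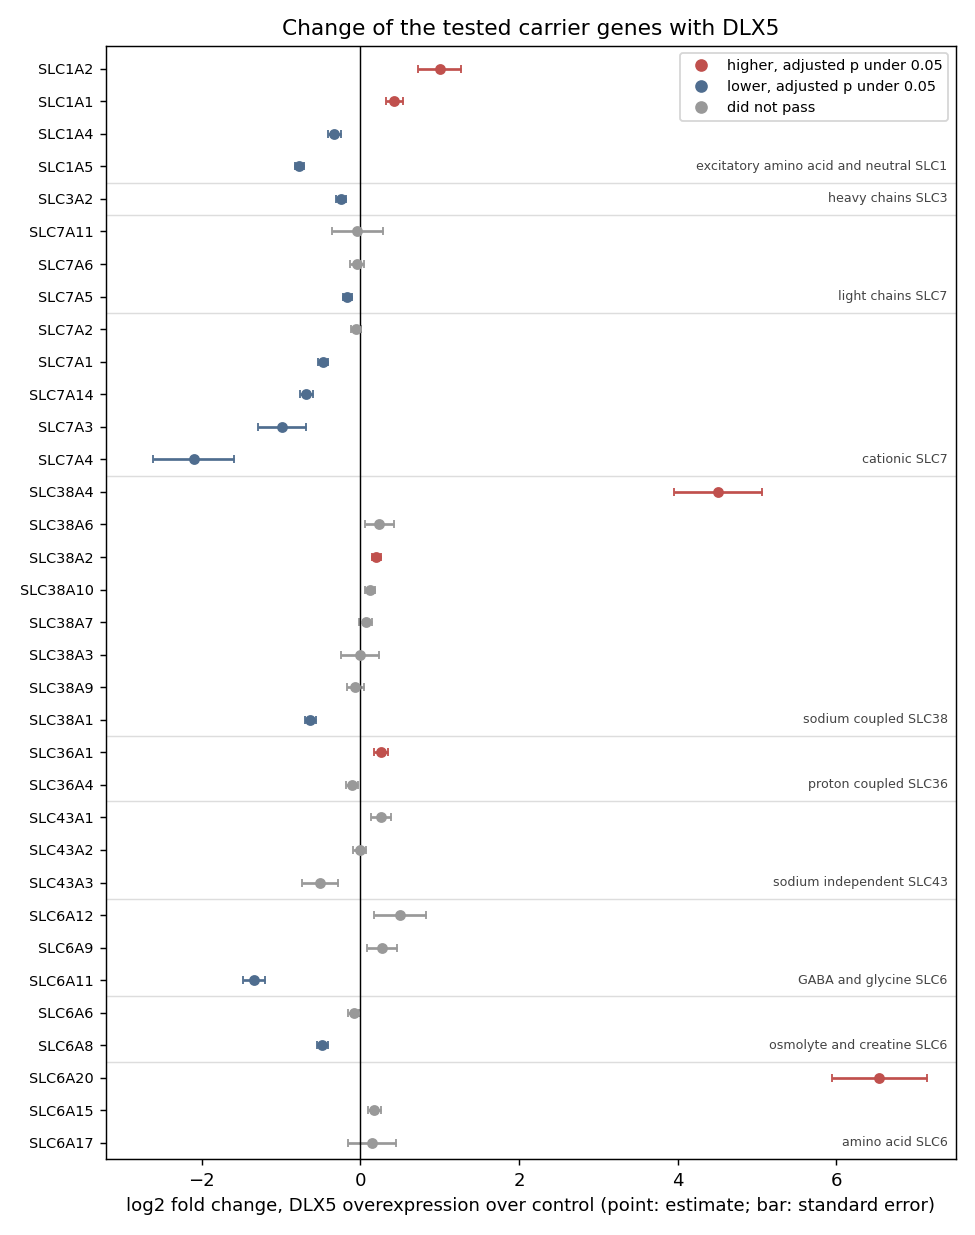
Log2 fold change of the 34 tested carriers, DLX5 overexpression over control, with its standard error, grouped by role. SLC6A20 at 6.54 and SLC38A4 at 4.51 stand far to the right, SLC7A4 at -2.10 and SLC6A11 at -1.34 to the left, and the 17 grey carriers lie between -0.51 and 0.50.

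Levels of different genes were compared per length, as FPKM, the values deposited by the authors in which counts are divided by gene length and a scaled library total. At 10 FPKM or more in either group stood 9 carriers, of which 6 fell, 1 rose and 2 did not pass. Of the 5302 tested genes at that level 73.7% were called, 44.0% lower and 29.6% higher. Of the 25 tested carriers below that level 5 fell, 5 rose and 15 did not pass. Over tested genes of any level 29.8% were higher and 28.8% lower. The shares over all genes below 10 FPKM are not given here, so these counts are not read as a trait of low carriers. Summed over all 58, the carriers held 272.5, 274.3 and 268.9 FPKM in the DLX5 libraries, against 316.7, 305.5 and 322.2 FPKM in control. The groups did not overlap, with a ratio of 0.864 (exact permutation test, two-sided, p = 0.1, the smallest that 3 against 3 libraries can give). The 5 most abundant carriers took 57.5% ± 0.693 of the sum with DLX5 and 57.1% ± 0.986 in control (SD, n = 3 each).

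The order at the top differed between the groups. SLC38A2, a glutamine and alanine importer, led in the DLX5 libraries with 50.8 ± 3.0 FPKM, apart from SLC38A10 at 29.4 ± 1.78 FPKM (SD, n = 3). SLC1A5 at 26.2 ± 0.646 and SLC6A8 at 26.1 ± 1.5 FPKM came next and overlapped with each other. Below them SLC7A5, SLC7A1, SLC38A1, SLC3A2, SLC7A2 and SLC6A6 followed in steps without overlap, between 23.7 and 8.09 FPKM. In control SLC1A5 at 44.6 ± 2.20 and SLC38A2 at 44.2 ± 1.46 FPKM shared the top and overlapped. SLC6A8 followed at 36.4 ± 2.60 FPKM. SLC38A10, SLC7A1, SLC7A5 and SLC38A1 lay close together between 27.1 and 24.7 FPKM, each overlapping with the next.

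**Figure D2:**
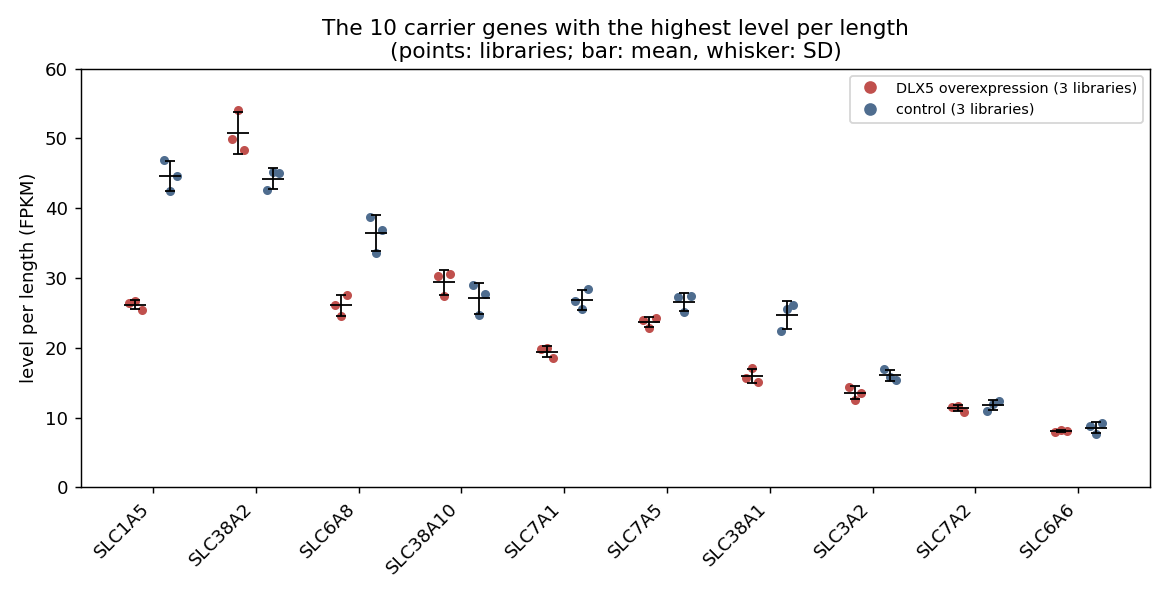
Level per length in FPKM of the 10 most abundant carriers in control, with a point per library, the mean and the SD (3 libraries a group). SLC1A5 sits near 26.2 FPKM with DLX5, below its 44.6 FPKM in control, and SLC38A2 sits at 50.8 FPKM with DLX5, above its 44.2 FPKM in control.

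Among the glutamate and neutral amino acid carriers of the SLC1 family, both tested glutamate carriers, SLC1A1 and SLC1A2, rose and both neutral exchangers fell, while the other 3 glutamate carriers could not be tested. SLC1A5 (ENSG00000105281, chromosome 19, 46774883 to 46788594, minus strand, GRCh38), which exchanges glutamine, held 89.1, 89.2 and 85.7 CPM in the DLX5 libraries, against 157, 143 and 149 CPM in control. Every DLX5 library lay below every control. Its log2 fold change was -0.77 ± 0.06 (± is a standard error after a log2 fold change), or 1.70-fold lower (edgeR, adjusted p = 3.22e-11). SLC1A4, the serine and alanine exchanger, held 23.3, 25.7 and 24.4 CPM with DLX5, against 29.3, 31.1 and 31.6 CPM in control. It fell by 0.33 ± 0.08 on the log2 scale (edgeR, adjusted p = 0.00139), again with no overlap. Per length, SLC1A5 was 7.5 ± 0.405 times as abundant as SLC1A4 with DLX5 and 10.2 ± 0.856 times in control (SD, n = 3 each; exact permutation p = 0.1).

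SLC1A1 (ENSG00000106688, chromosome 9, 4490444 to 4587469, plus strand), the glutamate and cysteine carrier EAAT3 of neurons, held 16.9, 16.8 and 18.0 CPM with DLX5 and 13.3, 13.4 and 11.7 CPM in control. The DLX5 libraries were all higher, by 0.43 ± 0.10 on the log2 scale (edgeR, adjusted p = 0.00102). SLC1A2, the glutamate carrier EAAT2 that astrocytes are known for, held 3.43, 2.26 and 2.56 CPM with DLX5, against 1.54, 1.44 and 1.16 CPM in control. It rose by 1.00 ± 0.27 on the log2 scale (edgeR, adjusted p = 0.00235) at this low level, and its adjusted p was 0.161 with limma on log2(FPKM + 1), where the log2 change was 0.08, and 0.0594 on log2(FPKM + 0.1). The other astrocyte carrier, SLC1A3, had 0 counts in every library, and so had SLC1A6. A count of 0 over 3 libraries allows up to 0.0617 CPM in the DLX5 group and 0.0624 CPM in control, counting error only. SLC1A7, the carrier EAAT5 of the retina, had 6 counts over the DLX5 libraries and 8 over the controls and was not tested. Summed per length, the glutamate carriers SLC1A1, SLC1A2, SLC1A3, SLC1A6 and SLC1A7 held 4.41 ± 0.160 FPKM with DLX5 and 3.27 ± 0.240 FPKM in control (SD, n = 3 each), with no overlap and an exact permutation p = 0.1.

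The heterodimeric exchangers shifted little. SLC3A2 (ENSG00000168003, chromosome 11, 62856102 to 62888875, plus strand), the CD98 heavy chain that brings the light chains to the surface, held 75.7, 65.5 and 71.0 CPM with DLX5, against 88.6, 82.9 and 80.1 CPM in control. It was lower in every DLX5 library, by a log2 fold change of -0.24 ± 0.07 (edgeR, adjusted p = 0.00344). Its light chain SLC7A5 (ENSG00000103257, chromosome 16, 87830023 to 87869488, minus strand), the exchanger LAT1 for leucine and other large neutral amino acids, held 115, 109 and 116 CPM with DLX5, against 130, 120 and 131 CPM in control. The fall of 0.16 ± 0.06 on the log2 scale passed by a small margin (edgeR, adjusted p = 0.0246). It did not pass without DLX5 overexpression replicate 1 or 2 (adjusted p = 0.0668 and 0.105) or without control replicate 1 or 3 (adjusted p = 0.0616 and 0.0833). The copy SLC7A5P1 took 33 counts over the DLX5 libraries and 62 over the controls, beside 5514 and 6099 for SLC7A5.

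SLC7A11, the cystine and glutamate exchanger xCT that feeds glutathione synthesis, was low, with 1.38, 1.29 and 0.913 CPM in the DLX5 libraries and 1.14, 1.26 and 1.28 CPM in control. The groups overlapped, at a log2 fold change of -0.04 ± 0.32 (edgeR, adjusted p = 0.928), with 58 counts over the DLX5 libraries and 59 over the controls. SLC7A6, an exchanger of cationic for neutral amino acids, stood at a log2 fold change of -0.05 ± 0.09, with 27.2 ± 2.03 CPM with DLX5 and 28.1 ± 2.37 CPM in control. Its exons overlap SLC7A6OS, on the other strand, over 3371 bases, and that gene held 27.0% as many counts. Too few reads were left to test SLC7A7, SLC7A8, SLC7A9, SLC7A10 and SLC7A13 or the second heavy chain SLC3A1, the partner of SLC7A9 in kidney. SLC7A10, the D-serine and small neutral amino acid carrier, had 23 counts with DLX5 and 28 in control, SLC7A7 23 and 18, SLC7A9 5 and 5, SLC3A1 1 and 3, SLC7A8 0 and 1, and SLC7A13 had 0 in every library. Exons of SLC7A10 and SLC3A1 overlap LRP3 and PREPL on the other strand, which held far more counts. Per length, the 6 light chains that pair with SLC3A2 summed to 2.04 ± 0.0826 times the heavy chain with DLX5 and 1.91 ± 0.138 times in control, and the groups overlapped (exact permutation p = 0.3). SLC7A5 made up 85.8% ± 1.16 of these light chains with DLX5 and 86.8% ± 0.479 in control (SD, n = 3 each). The light chain sum itself was 27.6 ± 0.815 FPKM with DLX5 and 30.65 ± 1.60 FPKM in control, without overlap (exact permutation p = 0.1).

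In the cationic branch of SLC7, 4 of 5 members were lower, where 28.8% of all tested genes were. SLC7A3 and SLC7A4, among these 4, had few counts. SLC7A1 (ENSG00000139514, chromosome 13, 29509410 to 29595688, minus strand), the main arginine and lysine importer CAT1, held 154, 155 and 144 CPM with DLX5, against 207, 199 and 220 CPM in control. It fell by 0.47 ± 0.06 on the log2 scale (edgeR, adjusted p = 2.48e-07), with no overlap of the groups. SLC7A14, a lysosomal protein of neurons, fell by 0.68 ± 0.08, to 24.0 ± 1.16 CPM with DLX5, against 38.4 ± 2.03 CPM in control (edgeR, adjusted p = 6.59e-08). SLC7A3, the carrier CAT3 of brain, held 0.963, 1.10 and 0.974 CPM in the DLX5 libraries and 1.47, 2.46 and 2.07 CPM in control, a log2 fold change of -0.99 ± 0.31 (edgeR, adjusted p = 0.00722). Without control replicate 2 it was -0.82 and did not pass (adjusted p = 0.0521). The orphan member SLC7A4 (ENSG00000099960, chromosome 22, 21028718 to 21032840, minus strand) held 0.120, 0.0646 and 0.548 CPM with DLX5, against 1.21, 0.839 and 1.22 CPM in control. Its log2 fold change of -2.10 ± 0.51 (edgeR, adjusted p = 0.00103) was the largest fall of the set in edgeR, and became -3.43 without DLX5 overexpression replicate 3. SLC7A4 had 12 counts over the DLX5 libraries and 52 over the controls, and its exons overlap those of P2RX6 over 113 bases on the other strand. P2RX6 held 523 counts in all and had a log2 fold change of -1.29. The remaining member, SLC7A2, a cationic carrier induced by cytokines, held 90.3 ± 3.21 CPM with DLX5 and 93.8 ± 5.73 CPM in control, at a log2 fold change of -0.05 ± 0.06 (edgeR, adjusted p = 0.487).

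Neighbouring SLC38 genes on chromosome 12 moved in different directions. SLC38A1, SLC38A2 and SLC38A4 lie in a row on the minus strand, 88171 and 391893 bases apart. SLC38A1 (ENSG00000111371, 46183063 to 46270017), the glutamine importer SNAT1 of neurons, held 159, 172 and 152 CPM with DLX5, against 226, 258 and 264 CPM in control. It was lower in every DLX5 library, with a log2 fold change of -0.63 ± 0.07 (edgeR, adjusted p = 5.86e-09). SLC38A2 (ENSG00000134294, 46358189 to 46372867), the carrier SNAT2 that cells are known to induce when amino acids run short, held 333, 359 and 322 CPM with DLX5, against 283.0, 300.5 and 299.2 CPM in control. The rise was small, 0.20 ± 0.06 on the log2 scale (edgeR, adjusted p = 0.00523), with no overlap, and did not pass with library totals in place of scaling factors (adjusted p = 0.0507). SLC38A4 (ENSG00000139209, 46764761 to 46832408), the carrier SNAT4 of liver and placenta, held 1.26, 2.71 and 2.25 CPM in the DLX5 libraries, against 0.134, 0.120 and 0 CPM in control. It had 100 counts with DLX5 and 4 in control, a log2 fold change of 4.51 ± 0.55 (edgeR, adjusted p = 1.01e-07).

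Within each library SLC38A1 stood at 0.314, 0.316 and 0.312 times the level per length of SLC38A2 with DLX5, against 0.527, 0.566 and 0.581 times in control. This ratio needs no scaling between libraries. It did not overlap between groups (exact permutation p = 0.1). Their sum was 66.8 ± 4.06 FPKM with DLX5 and 68.9 ± 3.45 FPKM in control, and here the groups overlapped (exact permutation p = 0.7).

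The other SLC38 members did not pass. SLC38A10, an abundant carrier of intracellular membranes, held 236, 212 and 239 CPM with DLX5, against 226, 192 and 215 CPM in control. The groups overlapped, at a log2 fold change of 0.12 ± 0.07 (edgeR, adjusted p = 0.123). SLC38A9, the arginine sensor of the lysosome that signals to mTORC1, stood at -0.06 ± 0.11, and SLC38A7, which exports glutamine from lysosomes, at 0.07 ± 0.08 on the same scale. SLC38A3 was at -0.01 ± 0.24 and SLC38A6 at 0.24 ± 0.19. Exons of SLC38A6 overlap TRMT5, which held 652% as many counts. SLC38A5 had 16 counts with DLX5 and 14 in control, and SLC38A8 had 0 and 4. SLC38A11 had 19 counts over the DLX5 libraries and 2 over the controls, a ratio of scaled counts of 9.40 (95% counting interval 2.27 to 83.2), and was not tested. Its exons overlap those of AC019197.1 over 79 bases on the other strand. AC019197.1 held 486% as many counts and had a log2 fold change of 3.90, and reads of such shared bases cannot be told apart here.

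Of the proton-coupled SLC36 carriers SLC36A1, the lysosomal carrier PAT1, held 30.1, 28.5 and 27.2 CPM with DLX5, against 21.8, 23.9 and 26.1 CPM in control. It rose by 0.26 ± 0.09 on the log2 scale (edgeR, adjusted p = 0.0143). This call was lost with library totals (adjusted p = 0.0689), without DLX5 overexpression replicate 1 (0.0736 as adjusted p), without control replicate 1 (0.0815), and with limma on log2(FPKM + 1) (0.0506) and log2(FPKM + 0.1) (0.0505). SLC36A4 stood at -0.11 ± 0.08. SLC36A2 had 1 count in each group, and SLC36A3 had 0 with DLX5 and 4 in control. None of the 3 sodium-independent SLC43 carriers passed. SLC43A1 and SLC43A2, the leucine carriers LAT3 and LAT4, had log2 fold changes of 0.26 ± 0.12 and -0.01 ± 0.08, and SLC43A3, a purine nucleobase carrier, was at -0.51 ± 0.23 (edgeR, adjusted p = 0.0552).

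**Figure D3:**
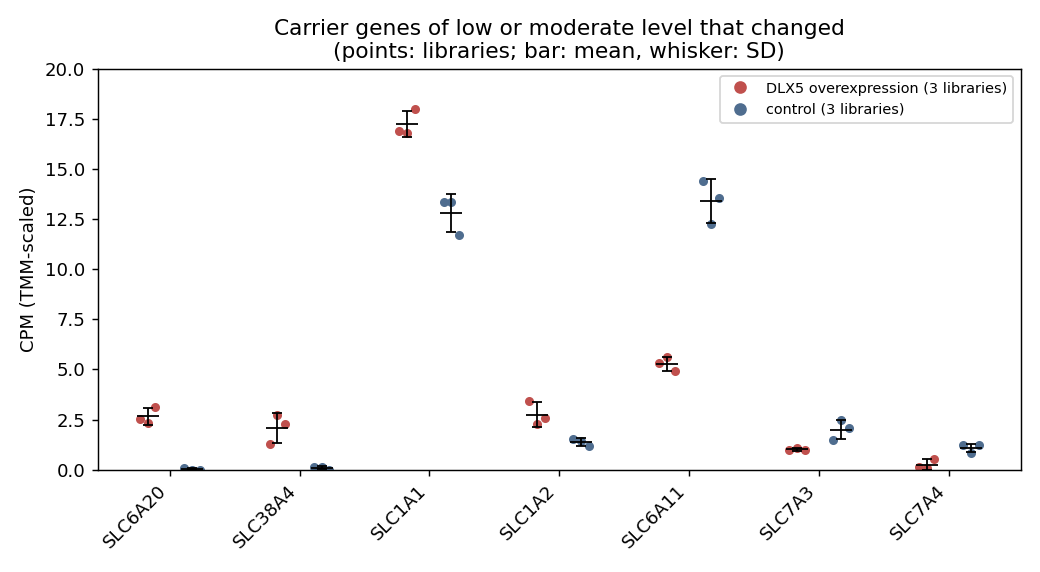
CPM by library of 7 carriers of low or moderate level that changed, with a point per library, the mean and the SD (3 libraries a group). SLC6A20 and SLC38A4 lie near 0 in control and between 1.26 and 3.10 CPM with DLX5, while SLC6A11 lies between 4.93 and 5.62 CPM with DLX5, below its 12.2 to 14.4 CPM in control.

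Among the tested neurotransmitter carriers of SLC6, the GABA carrier SLC6A11 (ENSG00000132164, chromosome 3, 10816200 to 10940733, plus strand) changed most. It held 5.29, 5.62 and 4.93 CPM with DLX5, against 14.4, 12.2 and 13.5 CPM in control. The groups were far apart, with a log2 fold change of -1.34 ± 0.13, or 2.53-fold lower (edgeR, adjusted p = 2.10e-09). SLC6A12, the betaine and GABA carrier, was at a log2 fold change of 0.50 ± 0.33, and SLC6A13, a GABA carrier of liver and meninges, had 2 counts with DLX5 and 8 in control.

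The glycine carrier SLC6A9 was at a log2 fold change of 0.27 ± 0.19, but its exons overlap CCDC24, which held 348% as many counts, over 404 bases. SLC6A5, the glycine carrier of inhibitory nerve endings, had 1 count with DLX5 and 7 in control. The dopamine carrier SLC6A3 had 0 counts in every library. The serotonin carrier SLC6A4 had 3, 4 and 1 counts in the DLX5 libraries and 0, 2 and 4 in control, too few to test. SLC6A8 (ENSG00000130821, chromosome X, 153688099 to 153696593, plus strand), the creatine carrier, held 145, 136 and 154 CPM with DLX5, against 215, 187 and 204 CPM in control. It fell by 0.48 ± 0.06 on the log2 scale (edgeR, adjusted p = 4.79e-07), with no overlap. The related copy SLC6A10P took 27 counts over the DLX5 libraries and 4 over the controls, beside 7039 and 9670 for SLC6A8. SLC6A6, the taurine carrier, stood at -0.08 ± 0.07 and did not pass, and GRIP2, which overlaps its exons over 239 bases, held 34.6% as many counts.

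The largest rise of the set in edgeR was in SLC6A20 (ENSG00000163817, chromosome 3, 45755450 to 45796535, minus strand), a carrier of proline and other imino acids known from kidney, gut and brain. It held 2.53, 2.32 and 3.10 CPM in the DLX5 libraries, against 0.0670, 0 and 0 CPM in control. That is 129 counts against 1, a ratio of scaled counts of 128 (95% counting interval 22.5 to 5080). The fitted log2 fold change was 6.54 ± 0.60 (edgeR, adjusted p = 4.62e-10) and 8.44 without control replicate 1, which held the only control count. With limma SLC38A4 rose more, by 0.55 against 0.47 for SLC6A20 on log2(FPKM + 1) and by 2.27 against 2.26 on log2(FPKM + 0.1). SLC6A16, an orphan carrier, had 32 counts over the DLX5 libraries and 3 over the controls, or 10.6 times as many after scaling (95% counting interval 3.30 to 53.9), and was not tested. SLC6A15, a neutral amino acid carrier of neurons, held 55.6 ± 5.69 CPM with DLX5 and 49.1 ± 3.76 CPM in control, at a log2 fold change of 0.18 ± 0.08 (edgeR, adjusted p = 0.0592). SLC6A17, which loads neutral amino acids into synaptic vesicles, was at 0.15 ± 0.31. SLC6A7, SLC6A14 and SLC6A18 had 0 counts in every library, and SLC6A19, the neutral amino acid carrier of gut and kidney, had 1 count in control. In all, 24 carriers were not tested, 7 with no count and 17 with at most 15 counts in a library.

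**Figure D4:**
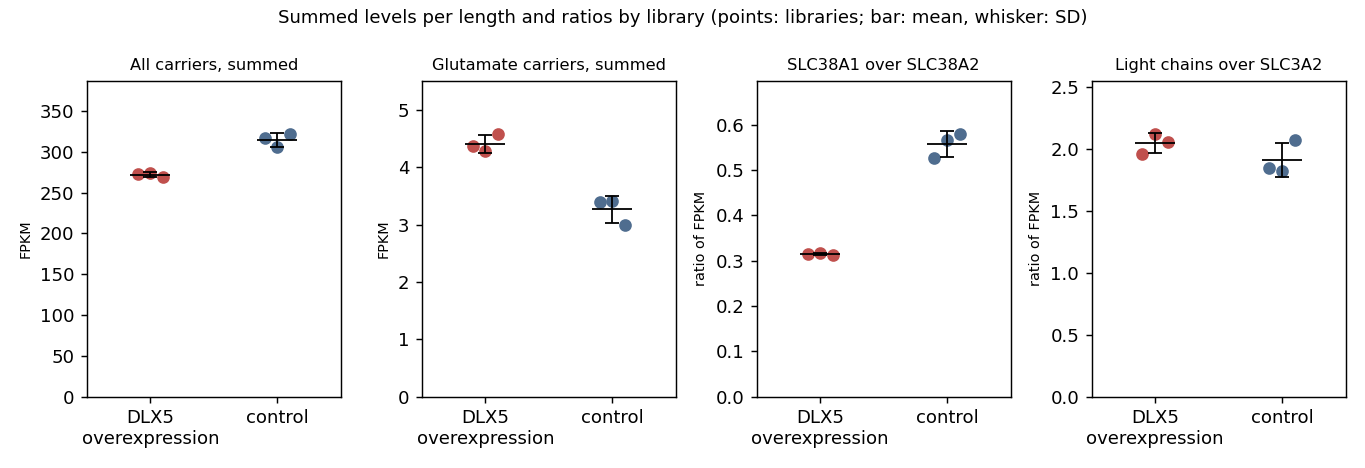
Summed FPKM and ratios of FPKM by library, with a point per library, the mean and the SD (3 libraries a group). The sum over all carriers (272 with DLX5, 315 in control) was lower with DLX5, the glutamate carrier sum was higher, and the ratio of light chains to SLC3A2 overlapped.

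Genes that act beside these carriers were read from the same test, against 29.8% higher and 28.8% lower over all tested genes. Of 23 tested genes of the amino acid response, which ATF4 drives when amino acids are scarce, 6 rose and 13 fell, 4 stayed short of the threshold, and the median log2 fold change was -0.34. The secreted hormone STC2 rose by 2.19 ± 0.09, while EIF4EBP1, a brake on translation, fell by 0.68 ± 0.07, PHGDH, the first enzyme of serine synthesis, fell by 0.53 ± 0.06 and the transcription factor CEBPG fell by 0.68 ± 0.08. ATF4 itself held 92.1 ± 7.35 CPM with DLX5 and 116 ± 4.47 CPM in control. Of the 33 genes through which mTORC1 reads amino acids, 9 rose, 12 fell and 12 did not pass (median -0.09). The lysosomal GTPase RRAGD fell by 1.28 ± 0.11 and the leucine sensor SESN1 fell by 0.56 ± 0.08, whereas its relative SESN3 rose by 0.67 ± 0.08.

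Of the 18 cysteine and glutathione genes 5 were higher, 6 lower and 7 did not pass (median 0.00), shares near those over all genes. NFE2L2, the regulator of the oxidative stress response, rose by 0.76 ± 0.08 and its target HMOX1 by 0.93 ± 0.18, while KEAP1, which holds NFE2L2 back, fell by 0.42 ± 0.07. Among other known targets of NFE2L2 in this list, NQO1 fell by 0.26 ± 0.09, TXNRD1 by 0.30 ± 0.06 and GCLC by 0.25 ± 0.07. GCLM and GSR stood at 0.00 ± 0.09 and -0.02 ± 0.07. The activity of NFE2L2 was not tested. CBS was lower too, at 12.8 ± 4.27 CPM with DLX5 and 35.6 ± 17.6 CPM in control. CBSL, annotated as a close copy of CBS, held 459 counts over the DLX5 libraries and 663 over the controls, and how the counting divided shared reads is not known. Of 16 tested genes that make or break down glutamate, GABA and glycine 4 rose, 5 fell and 7 did not pass (median 0.01). ASS1, which makes the arginine precursor, rose by 1.28 ± 0.17. GAD1, which makes GABA, had 59 counts over the DLX5 libraries and 4 over the controls, and ABAT, which breaks GABA down, fell by 0.49 ± 0.07.

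Vesicular, mitochondrial and other amino acid or amine carriers outside the 7 families were lower in 9 of 16, higher in 4 and not past the threshold in 3 (median -0.27). The vesicular acetylcholine carrier SLC18A3 fell to 35.8 ± 0.977 CPM with DLX5, against 142 ± 6.85 CPM in control, and the vesicular monoamine carrier SLC18A1 fell by 2.28 ± 0.11. Of the mitochondrial aspartate and glutamate carriers SLC25A13 fell by 0.65 ± 0.06 and SLC25A12 rose by 0.86 ± 0.11. Partners and regulators of the carriers were higher in 8 of 15 and lower in 4 (median 0.49). They included CD44, whose variants bind SLC7A11 at the surface, with 228 ± 12.6 CPM with DLX5 and 46.3 ± 1.35 CPM in control. GPRC5A, HIF1A and ARL6IP5, an inhibitor of glutamate uptake by SLC1A1, rose by 4.15 ± 0.10, 1.63 ± 0.07 and 1.61 ± 0.07 (log2 fold change ± SE).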

How the data were processed

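Per the labels' protocols, Trizol-extracted total RNA went into NEBNext Ultra libraries. The deposited counts are whole reads per gene. The submitters' processing notes list HISAT2 2.0.5 and featureCounts 1.5.0-p3 with no settings, and say nothing of strand. Those notes name hg19, yet identifiers and positions of all 58735 genes are those of GENCODE 29 on GRCh38, so coordinates are GRCh38. The FPKM values deposited by the authors hold the same reads, with a scaled total 0.968 to 1.03 times the counts. This scaled total lay below the count total in the DLX5 libraries and above it in control. The TMM factors split the groups in the same direction.

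Counts were tested with edgeR 4.0.16 in R 4.3.3 (filterByExpr, TMM factors, quasi-likelihood test of 3 DLX5 overexpression libraries against 3 controls, Benjamini-Hochberg adjustment over 17269 genes). Standard errors are the change over the square root of F, and at few counts can be smaller than the counting error. Counting intervals are exact binomial, and intervals and floors cover counting error only. The fit was checked on simulated counts. Chi-square over its degrees of freedom was 2.31 to 5.52 between libraries of 1 group, so none was treated as a copy. The members and lists were chosen with earlier results of these data known. Full values are given for carriers changed 2-fold or more with at least 1 CPM, the 5 most abundant in each group and 7 fixed carriers; other values are added to account for every member. In each list the genes with the lowest adjusted p, up to 4, were named. ATF4, TH, COL3A1, COL1A1, PDGFRA, KRT19, PECAM1, PTPRC, S100B, NQO1, TXNRD1, GCLC, GCLM, GSR and CBSL were added after their values were seen. Of the tested carriers 7 share exon bases with a gene that held over 10% as many counts, and such reads cannot be told apart here. A few items that these rules would name are not reported here. Alternatives were RLE factors, library totals, DESeq2 1.42.0, no filter, a filter of 1 CPM in 3 libraries, a replicate block, limma 3.58.1 on log2(FPKM + 1) and log2(FPKM + 0.1), and each library left out. Figures were drawn with matplotlib 3.10.9.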

Additional observations from a re-analysis of the deposited data

How the results depend on the processing

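The counts of carriers and of list genes called stayed within 1.5 times their value under every alternative run. Carriers called higher, 6 in the main fit, were 4 with library totals and with either limma run, and 8 with no filter on low counts. With each library left out in turn, 6 to 7 carriers were higher and 10 to 12 lower, the median log2 fold change of the carriers ran from -0.065 to -0.0061, and 9277 to 9841 genes were called in all. Single carriers near the threshold moved. SLC43A3 passed with library totals (log2 fold change -0.57, adjusted p = 0.0307), with limma on log2(FPKM + 1) (-0.19, adjusted p = 0.0404), and with control replicate 2 left out (-0.60, adjusted p = 0.0455). The cause was not tested. SLC38A10 passed without DLX5 overexpression replicate 2 (adjusted p = 0.0338) or control replicate 1 (0.0395), SLC6A15 without DLX5 overexpression replicate 1 (0.0261) or control replicate 2 (0.0451), SLC6A6 without control replicate 2 (0.0445) and SLC43A1 without DLX5 overexpression replicate 1 (0.05). With library totals SLC38A7 turned to -0.0011. Carriers with changes near 0 turned sign when a library was left out: SLC38A3 (-0.15 to 0.17), SLC38A9 (-0.17 to 0.0278), SLC43A2 (-0.0309 to 0.0144), SLC7A11 (-0.15 to 0.13) and SLC7A6 (-0.12 to 0.006), none of which passed. On log2(FPKM + 1) the changes of low carriers shrink by construction, to 0.47 for SLC6A20, 0.55 for SLC38A4, -0.74 for SLC6A11, -0.37 for SLC7A3 and -0.39 for SLC7A4, and on log2(FPKM + 0.1) to 2.26 for SLC6A20 and 2.27 for SLC38A4, all still called. The filter of 1 CPM in 3 libraries removed SLC7A4. Replicate numbers did not pair the libraries (correlations of 0.00688, 0.0944 and -0.0399 between libraries of the same number). With the replicate block SLC6A15 passed (0.18, adjusted p = 0.0279), and it changed no other carrier call. Library totals moved the median of all genes by -0.0668 on the log2 scale. Depth limits the 24 untested carriers and the fitted sizes of SLC6A20, SLC38A4 and SLC7A4.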
